A study of Homo sapiens with 54 samples.

Results

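Transcripts of 7 GABA-A receptor subunit genes were followed in human neuron cultures given dopamine or dopamine receptor agonists. The 7 genes were GABRA2, GABRA3, GABRA4 and GABRA5 (alpha subunits), GABRB1 and GABRB2 (beta subunits) and GABRR2, taken by name out of 60676 genes listed for every library. A further 12 GABA-A subunit genes were counted as a group beside them.

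The cultures were hMSN-like cells, neurons resembling the medium spiny neurons of the striatum, made with activin A from H9, a line of human embryonic stem cells. RNA-seq was available for 53 libraries of 18 groups in 4 experiments. In the 1 mM experiment and again in the 1 µM experiment, cultures received phosphate-buffered saline (PBS) or dopamine in 1 h incubations. A single dose was followed by extraction 1 h (Ac1h) or 24 h (Ac24h) after dosing. A dose on each of 5 days was followed by extraction 1 h (Ch1h) or 24 h (Ch24h) after the last dose. In the time course, 2, 3, 4 or 5 daily doses of 1 mM dopamine with extraction after 1 h (Ch2D to Ch5D) were set against the ascorbic acid vehicle (AA). In the agonist experiment, cultures received water, the D1-like receptor agonist SKF82958 or the D2-like receptor agonist quinpirole, each at 50 µM. Every group held 3 libraries except Ch5D with 2, and the study calls them independent replicates. The labels do not say whether they came from separate differentiations, and p-values measure only the spread between these samples.

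The model has limits that bear on every comparison. All groups derive from 1 cell line, only a part of the neurons stained for the medium spiny neuron protein DARPP-32, and chronic cultures were collected at a later day in vitro than acute ones, with a single PBS group for both. Regimen and age therefore cannot be told apart, and nor can dose and experiment. Per the study's methods dopamine was given in ascorbic acid, and the control of both dose experiments was PBS. Dopamine and its vehicle thus cannot be told apart in comparisons with PBS. Striatal markers were present in the 12 control libraries, with mean TPM of 23.6 for PPP1R1B (DARPP-32), 56.1 for BCL11B, 5.04 for DRD2 and 1.43 for DRD1. The other striatal markers counted below ran from 0.32 (PDYN) to 37.6 (MEIS2). SLC17A7 and SLC17A6, which mark glutamatergic neurons, were also present at mean TPM of 86.3 and 42.8. The other excitatory neuron markers were at 776 (NEUROD6), 147 (TBR1) and 57.3 (EOMES). General neuron markers ran from 12.6 (RBFOX3) to 1240 (STMN2), and progenitor markers from 51.5 (PAX6) to 1410 (VIM).

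GABA-A receptors are chloride channels opened by GABA, and each is built from several subunits around a central pore. The alpha and beta subunits together form the site where GABA binds, and the alpha subunit sets much of the receptor's location and drug response: alpha2 is typical of synapses on medium spiny neurons, alpha4 and alpha5 are known for receptors outside synapses, and alpha3 is abundant in developing forebrain.

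The genes lay on 5 chromosomes (GRCh38). GABRA2 (4:46248427-46475230, minus strand), GABRA4 (4:46918900-46993581, minus strand) and GABRB1 (4:46993723-47426447, plus strand) shared chromosome 4, where GABRA4 and GABRB1 stood head to head with 141 bases between them. GABRA3 lay at X:152166234-152451315, GABRA5 at 15:26866911-26949208, GABRB2 at 5:161288429-161549044 and GABRR2 at 6:89254464-89315299. Other annotated genes overlapped 5 of the 7 on the opposite strand, among them another subunit gene over 72629 bases of GABRA5, and the strand setting of the read counting is not given in the sources used here. Reads from such opposite-strand partners cannot be told apart from those of the members.

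Promoter windows from RefSeq (GRCh38.p14, 250 bases before to 50 bases after a start site) matched 5 of the 7 genes, with 7 windows in all. The windows shown are those that hold either of the motifs marked, and they include the head-to-head pair. GABRA2 has 3 windows, of which only the one shown holds the EGR letters. Capitals mark the letters GTGGGCG, bound by early growth response (EGR) factors, in GABRA2 and (as the reverse complement) GABRA4, and the palindrome bound by NRF1 in GABRB1 and GABRB2. All windows are written 5′ to 3′ on the strand of the gene.
GABRA4, chr4:46993532-46993831, minus strand: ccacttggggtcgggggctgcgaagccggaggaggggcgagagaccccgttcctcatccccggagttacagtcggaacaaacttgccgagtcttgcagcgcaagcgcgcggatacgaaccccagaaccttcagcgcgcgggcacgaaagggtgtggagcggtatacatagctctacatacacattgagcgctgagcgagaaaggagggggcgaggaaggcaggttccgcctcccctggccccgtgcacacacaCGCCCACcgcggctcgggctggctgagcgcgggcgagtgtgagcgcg
GABRB1, chr4:47031317-47031616, plus strand: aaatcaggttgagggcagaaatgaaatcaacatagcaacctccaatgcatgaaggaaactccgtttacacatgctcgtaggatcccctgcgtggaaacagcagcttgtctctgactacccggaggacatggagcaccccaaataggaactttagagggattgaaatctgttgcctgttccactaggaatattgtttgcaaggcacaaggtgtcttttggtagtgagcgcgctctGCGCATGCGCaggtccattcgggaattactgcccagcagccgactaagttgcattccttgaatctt
GABRB2, chr5:161546676-161546975, minus strand: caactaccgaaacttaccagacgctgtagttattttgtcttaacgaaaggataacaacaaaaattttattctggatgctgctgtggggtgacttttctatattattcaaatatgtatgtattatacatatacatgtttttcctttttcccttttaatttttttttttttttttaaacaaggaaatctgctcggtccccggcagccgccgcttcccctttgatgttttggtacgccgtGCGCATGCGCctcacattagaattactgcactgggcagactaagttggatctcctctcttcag
GABRA2, chr4:46390251-46390550, minus strand: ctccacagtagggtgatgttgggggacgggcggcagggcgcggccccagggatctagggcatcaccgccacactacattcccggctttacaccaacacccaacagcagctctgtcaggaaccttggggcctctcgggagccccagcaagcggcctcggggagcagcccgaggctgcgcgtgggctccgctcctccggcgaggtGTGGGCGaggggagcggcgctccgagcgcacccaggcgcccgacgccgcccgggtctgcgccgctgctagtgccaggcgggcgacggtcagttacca

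The RefSeq start of GABRA4 was the start base used in the files, and its window covered all 141 bases of the gap to GABRB1 and 109 bases of GABRB1 itself. The RefSeq start of GABRB1 lay 37844 bases inside the gene as drawn in the files, so the GABRB1 window shown is not part of that gap. The RefSeq starts of GABRA2 lay 84930 to 86195 bases inside the gene as drawn in the files, and that of GABRB2 2319 bases inside. GC content was 66.0% for GABRA4, 48.7% for GABRB1, 39.0% for GABRB2 and 71.3% for GABRA2, against a median of 58.7% over 35116 windows. Searched on both strands, the NRF1 palindrome was held by 1.24% of all windows and GTGGGCG by 9.52%. The cyclic AMP response element TGACGTCA and the AP-1 letters TGANTCA, both tied to dopamine-driven transcription, were in none of the 7 windows, against 1.85% and 7.71% of all windows. The shorter letters TGACG, contained in TGACGTCA, were in 2 of the 7, a window of GABRA2 that is not shown and that of GABRR2, and in 24.6% of all windows. These letters were chosen with the sequences in view, and a match is a description and not a shown binding site.

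The order of the genes by level was much the same in the control groups. TPM is exon reads per exon length scaled to the library, so it can be compared between genes. In the 1 mM experiment's PBS group, GABRA3 stood highest at 51.8 ± 6.6 TPM (SD, n = 3), followed by GABRA5 at 26.7 ± 3.86 and GABRA2 at 22.1 ± 1.28. GABRB2 at 8.92 ± 0.183, GABRB1 at 5.75 ± 0.505 and GABRA4 at 3.91 ± 0.254 followed, and GABRR2 was lowest at 0.738 ± 0.208. No neighbours in this order overlapped in that group, nor among the AA or water libraries. In the 1 µM experiment's PBS group GABRA5 was at 10.9 ± 2.78 TPM, below GABRA2 at 20.7 ± 3.45, while GABRA5 overlapped GABRB2, GABRB2 overlapped GABRB1 and GABRB1 overlapped GABRA4. GABRA3 was highest and GABRR2 lowest in all 4 control groups.

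**Figure D1:**
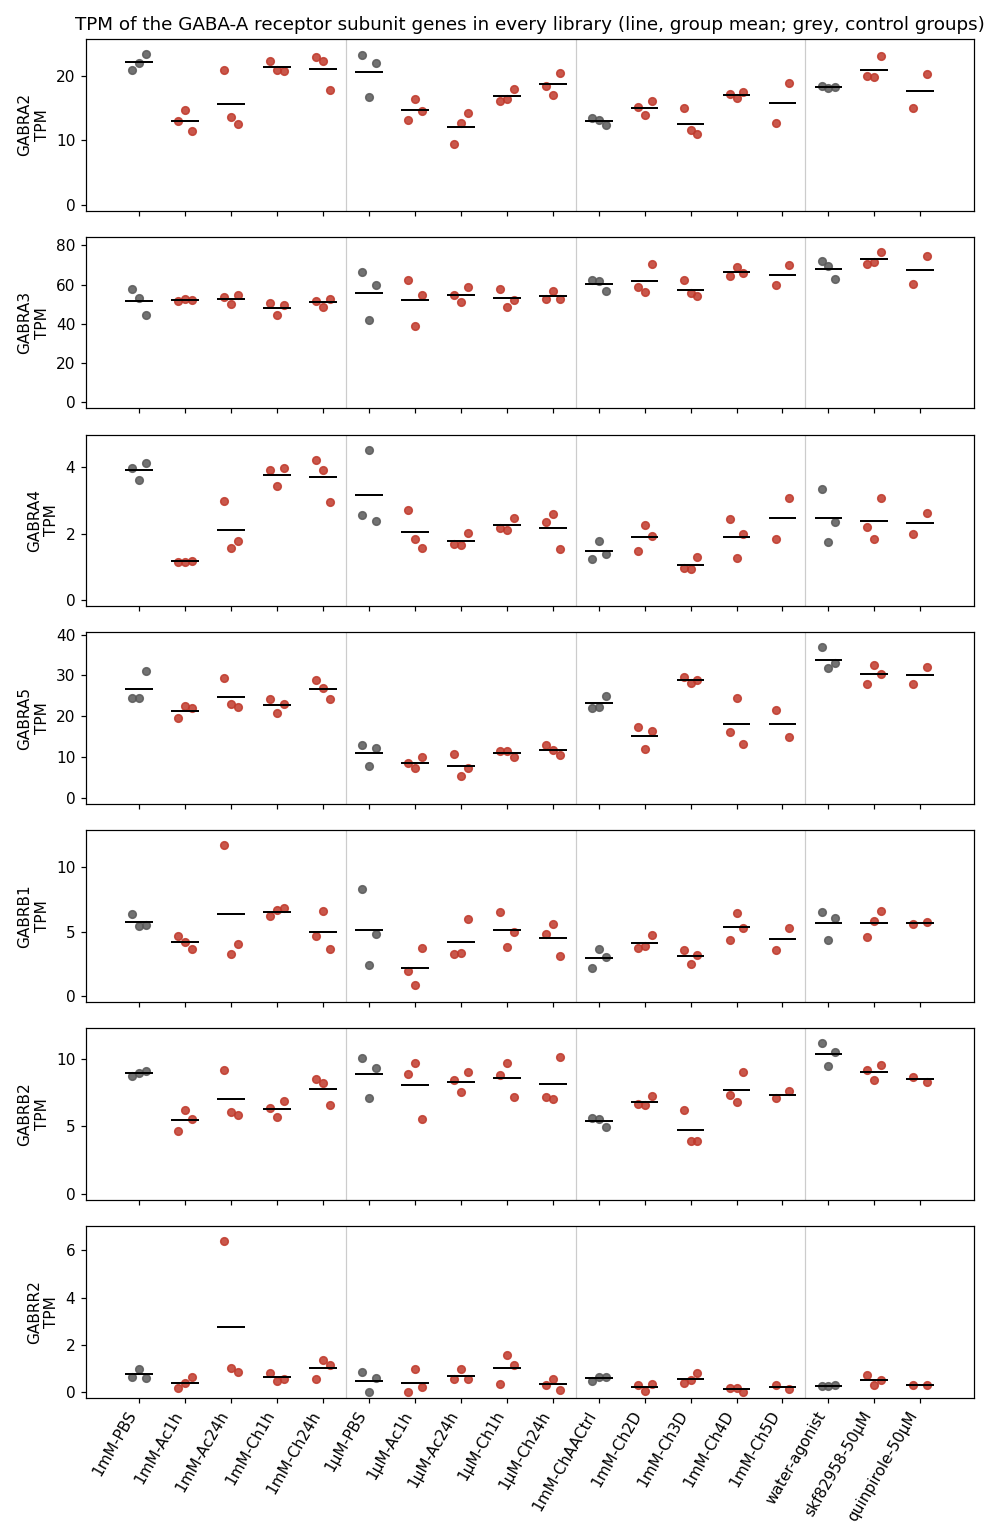
TPM of each subunit gene (1 panel each, own scale) in every library, by group on the x axis. Points are libraries, lines are group means, grey marks control groups, and vertical lines part the 4 experiments. The quinpirole library with 96.7% intron reads is left out. GABRA3 runs from 39.1 to 76.8 TPM, GABRA4 and GABRA2 are lower in 1mM-Ac1h than in PBS, and 1 Ac24h library stands above the rest for GABRB1 and GABRR2.

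GABRA3 supplied 43.2% of the summed TPM of the 7 genes in the 1 mM PBS group and 49.5% of the summed TPM of the 4 alpha members. The 7 genes together came to 120.0 ± 2.31 TPM there (SD, n = 3), and the other 12 subunit genes to 97.1 ± 5.62. Of those 12, 7 had a mean of at least 1 TPM over the control libraries, and none was above GABRA3.

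The share of reads in introns set the genes apart as well. Over the 52 libraries other than the 1 described next, the median intron share was 11.7% for GABRA5, 12.2% for GABRA3, 15.7% for GABRB2, 17.5% for GABRA2 and 18.4% for GABRA4. For GABRB1 it was 78.0% and for GABRR2 75.9%, with medians of 46 and 7 exon reads per library. GABRB1 spans 433 kb with exons over 0.682% of its length. Total gene reads (exon plus intron), on which the main test runs, therefore follow introns for GABRB1 and GABRR2 and exons for the other 5.

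Libraries held between 4121674 and 33715972 reads on genes, with a median of 13512153, and 12.3% to 31.2% of reads in introns. The first quinpirole library stood apart with 96.7% intron reads and 137051 exon reads in all, and the agonist results are given with and without it. The first 1mM-Ac24h library stood apart over all genes and for the members. Chi-square per degree of freedom of gene counts, higher for less alike libraries, was 121 and 109 against the other Ac24h libraries. Between those it was 7.39. The first Ac24h library had GABRR2 at 6.40 TPM and GABRB1 at 11.7 TPM, and the 1 mM results that rest on it are given both ways. It also enters the estimate of spread shared by all groups of the 1 mM experiment. At 1 µM, PBS library 2 had reads of 20984 genes, against 24932 to 29217 in the rest of that experiment. Its chi-square values against the other PBS libraries were 76.2 and 50.7, with 6.73 between those. The second 1 µM Ac1h library (43.3 and 90.1) and Ch1h library (50.9 and 75.2) also differed from their replicates. In the 1 mM experiment intron shares over all genes were 19.5% to 21.8% in PBS, 12.3% to 13.2% in Ac1h, 12.5% to 15.9% in Ac24h, 20.6% to 20.9% in Ch1h and 18.9% to 22.4% in Ch24h. That drop after acute dopamine moves with the results below, and so exon and intron reads were each tested on their own beside the total. In bulk RNA, fewer cells of a type and less RNA per cell cannot be told apart.

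A single dose of 1 mM dopamine was followed after 1 h by lower reads of 5 of the 7 subunit genes, with GABRA4 at the lowest adjusted p. The comparison asks what an acute dose, with its ascorbic acid vehicle, does against saline. GABRA4 was at 3.98, 3.63 and 4.13 TPM in PBS and at 1.17, 1.15 and 1.2 TPM in Ac1h, from 171, 169 and 187 exon reads against 52, 43 and 48. The groups lay far apart and the 3 treated libraries nearly coincided. GABRA4 fell by 1.37 ± 0.18 (log2 fold change of total gene reads ± SE) with adjusted p = 0.000158, and by 1.67 ± 0.20 in exon reads alone with adjusted p = 0.00024 (edgeR quasi-likelihood test, Benjamini-Hochberg over all genes).

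GABRA2 was at 20.9, 22.0 and 23.4 TPM in PBS and at 13.0, 14.7 and 11.5 TPM in Ac1h, again without overlap. Its total reads fell by 0.52 ± 0.13 with adjusted p = 0.00608, and its exon reads fell by 0.70 with adjusted p = 0.00663 (edgeR). Leaving out the third Ac1h library ended the first of these calls, at -0.44 with adjusted p = 0.0574 in edgeR. GABRB2 was at 8.72, 8.96 and 9.08 TPM in PBS and at 4.64, 6.22 and 5.55 TPM in Ac1h. All of its treated libraries were under all controls, and it fell by 0.59 in total reads (adjusted p = 0.00372) and by 0.64 in exon reads (adjusted p = 0.0157, both edgeR).

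For GABRB1 and GABRR2 the calls rested on total reads, most of them in introns. GABRB1 had 426, 401 and 374 intron reads in PBS and 76, 132 and 156 in Ac1h, with TPM of 6.34, 5.43 and 5.49 against 4.64, 4.19 and 3.63. Both measures were lower without overlap, TPM as for 22.0% of all genes. The intron reads are raw counts. Whole libraries held 4100771 to 4831776 intron reads in PBS and 2065355 to 2282841 in Ac1h. The share of all genes without overlap in raw intron reads is not given here. Total reads fell by 0.95 ± 0.17 with adjusted p = 0.000614, whereas the value was -0.40 (adjusted p = 0.479) in exon reads and -0.42 (adjusted p = 0.0616) in intron reads, each scaled to its own class of reads (edgeR). A drop of intron reads in a whole library enters the first value and not the last.

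GABRR2 rested on few reads: 12, 20 and 12 exon reads with 51, 94 and 61 intron reads in PBS, and 3, 6 and 11 exon reads with 14, 12 and 14 intron reads in Ac1h. The raw intron reads did not overlap between the groups, in libraries where intron reads over all genes were also fewer in Ac1h. It fell by 1.5 ± 0.46 in total reads (adjusted p = 0.015) and by 1.04 in intron reads (adjusted p = 0.0242), with -0.90 (adjusted p = 0.47) in exon reads (edgeR). This call ended when PBS library 2 (adjusted p = 0.0827), Ac1h library 1 (adjusted p = 0.0853) or Ac1h library 2 (adjusted p = 0.0631) was left out of the edgeR fit.

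GABRA3 and GABRA5 did not pass in total or exon reads. GABRA3 was at 57.6, 53.2 and 44.6 TPM in PBS and at 51.9, 52.7 and 52.4 TPM in Ac1h, with a log2 fold change of 0.09 ± 0.10 (edgeR adjusted p = 0.439). Its raw intron reads were at 321, 384 and 292 in PBS against 70, 90 and 107 in Ac1h, without overlap. They fell by 0.59 after scaling to intron reads (edgeR adjusted p = 0.0172). GABRA5 was at 24.5, 24.5 and 31.2 TPM in PBS and at 19.5, 22.6 and 22.1 TPM in Ac1h, with 0.01 ± 0.13 in total reads (edgeR adjusted p = 0.937) and -0.26 in exon reads (adjusted p = 0.196). Its treated TPM values were all below the controls even so.

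Against the background, 5 of 7 members fell where 28.7% of the 26006 genes tested were lower at the same threshold and 47.2% were called in either direction. In exon reads 3 of 7 fell, with 7.94% of genes lower and 16.0% called, and in intron reads 5 of 7 with 22.1% lower. TPM was lower without overlap for 5 of 7, and for 22.0% of genes. The median log2 fold change of the members was -0.59 and that of all genes -0.085. The study's own rule asked also for a log2 fold change of 1 or more in either direction and a group mean of 1 TPM or more, and by it GABRA4 alone passed, beside 4.95% of genes. All 5 calls stood without the Ac24h library that stands apart, though that library is in neither group.

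**Figure D2:**
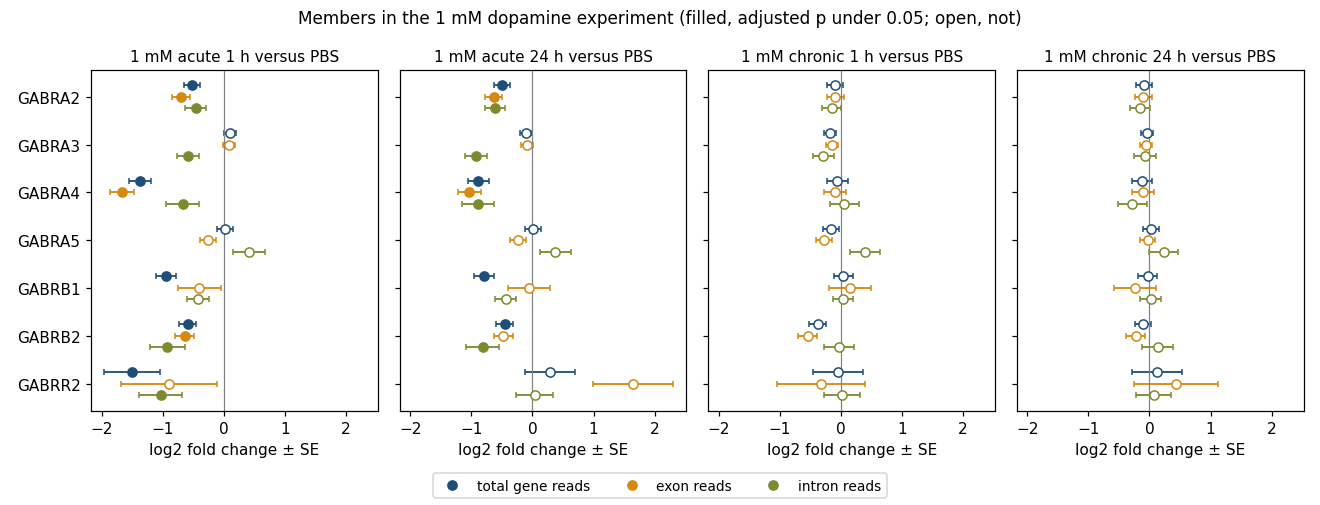
Log2 fold change ± SE of the 7 genes in the 1 mM experiment, each treated group against PBS (1 panel each). Colours give total gene reads, exon reads and intron reads, and filled points have an adjusted p under 0.05. Both acute panels hold filled points left of 0 for GABRA2, GABRA4, GABRB1 and GABRB2, and both chronic panels hold open points only.

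At 24 h after the single dose 4 of the 7 were lower than in PBS, in a comparison where 25.5% of genes were lower and 43.8% called. GABRA4 was at 3.00, 1.57 and 1.79 TPM and fell by 0.88 against PBS (edgeR adjusted p = 0.00195). GABRA2 was at 20.9, 13.5 and 12.6 TPM and fell by 0.49 (edgeR adjusted p = 0.00914). In both genes the first library, the one that stands apart, was the highest of the 3. GABRB1 fell by 0.80 (adjusted p = 0.00253) and GABRB2 by 0.45 (adjusted p = 0.0179) in total reads (edgeR).

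Exon reads passed for GABRA2 (-0.64, adjusted p = 0.0155) and GABRA4 (-1.04, adjusted p = 0.00617) at 24 h, 2 of 7 where 7.09% of genes were lower and 15.5% called (edgeR). Without the first Ac24h library, exon reads of 4 members passed: GABRA2 at -0.81, GABRA4 at -1.27, GABRB1 at -0.70 (edgeR adjusted p = 0.0443) and GABRB2 at -0.63. The share of all genes called in that fit is not given here. The total-read calls of GABRA2 and GABRB2 were fragile. That of GABRA2 ended without any of the 3 PBS libraries or Ac24h library 2 (edgeR adjusted p up to 0.0951), and that of GABRB2 ended in 8 of 15 such fits, with the weakest at -0.32 and adjusted p = 0.159 without Ac24h library 2. In a fit of PBS and Ac24h alone GABRB1 was the only member to pass, with GABRA4 at -0.83 (edgeR adjusted p = 0.0547). GABRA3 again had lower intron reads (-0.93, edgeR adjusted p = 0.00271) with -0.11 in total reads (adjusted p = 0.39), where 18.6% of genes were lower in intron reads.

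GABRR2 at 24 h had 95, 24 and 21 exon reads against 12, 20 and 12 in PBS, or 6.40, 1.02 and 0.839 TPM against 0.636, 0.977 and 0.602. A single library carried the high mean. The exon-read log2 fold change was 1.65 (edgeR adjusted p = 0.0973) with it and 0.27 (adjusted p = 0.702) without it, and the total-read value went from 0.29 (adjusted p = 0.597) to -0.60 (adjusted p = 0.0619). Set directly against Ac1h, GABRR2 was at 1.79 with adjusted p = 0.0516 in edgeR, and passed without Ac24h library 2 (2.19, adjusted p = 0.0162) or library 3 (2.09, adjusted p = 0.0287). No member passed between Ac24h and Ac1h in edgeR, where 2.66% of genes were called and 2 members were at an unadjusted p under 0.05. DESeq2 called GABRR2 (1.89, adjusted p = 0.00381), and so did edgeR on genes with at least 10 reads in every library (adjusted p = 0.0402). GABRA4 was at 0.49 with adjusted p = 0.131, and at 0.66 with adjusted p = 0.043 without Ac24h library 2.

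**Figure D3:**
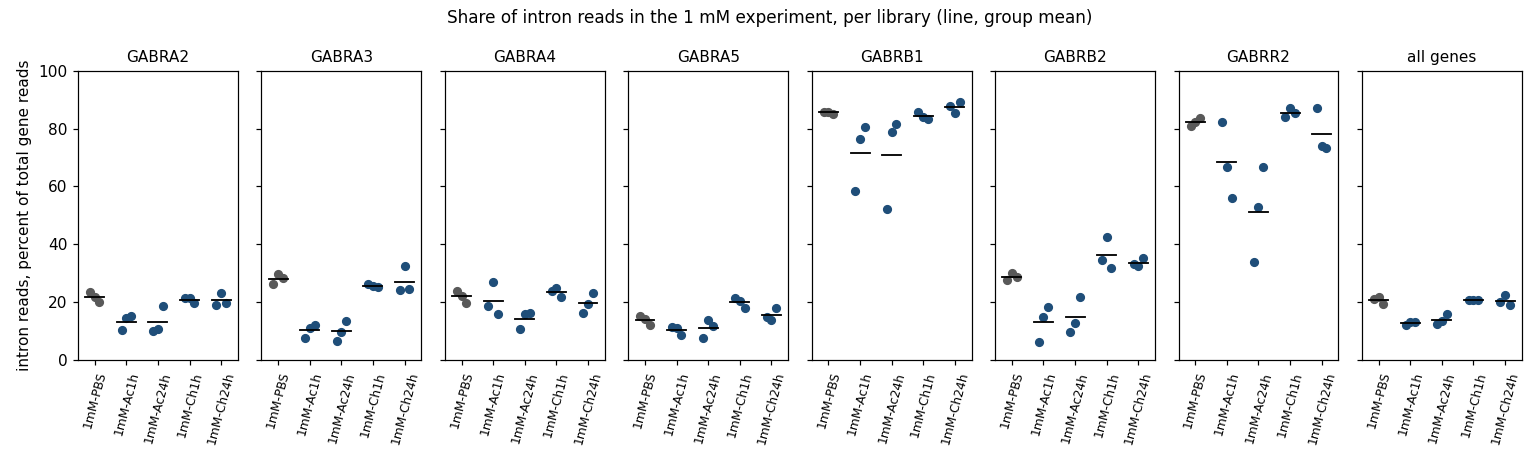
Intron reads as a percent of total gene reads, per library and group of the 1 mM experiment, for each subunit gene and for all genes (last panel). Lines are group means and grey marks PBS. Shares are lower in Ac1h and Ac24h than in PBS for all genes and for GABRA2, GABRA3 and GABRB2, while GABRA4 has 22.0% in PBS and 20.6% in Ac1h.

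After 5 days of 1 mM dopamine no member differed from PBS by the main test, at 1 h or at 24 h. GABRA4 was at 3.92, 3.45 and 3.97 TPM in Ch1h and at 4.23, 3.93 and 2.97 TPM in Ch24h, overlapping the PBS range both times. GABRA2 stood at 22.3, 21 and 20.7 TPM in Ch1h and at 22.9, 22.4 and 17.8 TPM in Ch24h. Both genes lay within or across the PBS range. GABRA3 ran from 44.6 to 52.7 TPM and GABRB1 from 3.63 to 6.85 over the 6 chronic libraries. GABRA5 was at 24.2, 20.8 and 23.0 TPM in Ch1h, all below PBS, with -0.17 in total reads (edgeR adjusted p = 0.729) and -0.28 in exon reads (adjusted p = 0.299), and at 28.8, 26.9 and 24.2 TPM in Ch24h, across the PBS range. Few genes were called in either comparison, 0.992% at 1 h and 0.162% at 24 h. At an unadjusted p under 0.05 in edgeR were 3132 and 1783 genes, among them 1 and 0 members. DESeq2 called 1076 and 399 genes, none of them a member.

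GABRB2 was the member closest to the threshold, and its TPM was below PBS without overlap in both chronic groups. It was at 6.33, 5.65 and 6.90 TPM in Ch1h, all below the PBS libraries at 8.72 to 9.08, with -0.38 in total reads (edgeR adjusted p = 0.248) and -0.55 in exon reads (adjusted p = 0.0912). Without the Ac24h library that stands apart, which belongs to another group of the same fit, these became adjusted p = 0.046 and adjusted p = 0.00638 in edgeR. In a fit of PBS and Ch1h alone GABRB2 passed in total reads (-0.35, edgeR adjusted p = 0.0086). In Ch24h GABRB2 was at 8.52, 8.20 and 6.54 TPM, with -0.11 in total reads (edgeR adjusted p = 1). TPM was lower without overlap for 10.1% of all genes in Ch1h and 7.34% in Ch24h.

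The direct comparison of chronic with acute dosing asks whether the response to repeated dopamine differs from that to the first dose. At 1 h, 4 members were higher after chronic dosing, where 25.3% of genes were higher and 40.1% called: GABRA4 by 1.31 (adjusted p = 0.000212), GABRB1 by 0.99 (adjusted p = 0.000634), GABRR2 by 1.45 (adjusted p = 0.0205) and GABRA2 by 0.41 (adjusted p = 0.0236, all edgeR on total reads). GABRA3 was lower by 0.28 (-0.28, edgeR adjusted p = 0.0347), a direction in which 14.8% of genes were called. In exon reads GABRA4 (1.58, adjusted p = 0.00041) and GABRA2 (0.61, adjusted p = 0.017) passed in edgeR, where 5.37% of genes were higher and 11.3% called, while GABRB1 was at 0.55 (adjusted p = 0.347) and GABRA3 at -0.22 (adjusted p = 0.163). Without the first Ac24h library, which is in neither group, exon reads of GABRB1 passed too in edgeR, beside GABRA4 and GABRA2. The share of all genes called in that fit is not given.

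GABRA4 and GABRB1 kept their total-read calls with any 1 library left out, and the other 3 did not. In edgeR GABRA2 lost it without Ac1h library 1 or 3 or Ch1h library 1 or 2 (adjusted p up to 0.131), GABRA3 without Ac1h library 2 or 3 or Ch1h library 2 or 3 (up to 0.139), and GABRR2 without Ac1h library 1 or 2 or Ch1h library 1 (up to 0.103).

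At 24 h chronic exceeded acute dosing for GABRA4 (0.76, adjusted p = 0.0044), GABRB1 (0.76, adjusted p = 0.00334) and GABRA2 (0.40, adjusted p = 0.0279), where 24.8% of genes were higher and 40.0% called (edgeR). GABRA4 and GABRA2 also passed in exon reads, at 0.93 (edgeR adjusted p = 0.0105) and 0.54 (adjusted p = 0.038), where 3.85% of genes were higher and 7.75% called. The GABRA2 call on total reads ended in most fits with 1 library left out, with adjusted p up to 0.258 without Ac24h library 2. Without Ac24h library 1, GABRB2 (0.45, adjusted p = 0.0113) and GABRR2 (0.72, adjusted p = 0.0302) passed too in edgeR. In a fit of Ch24h and Ac24h alone no member passed, with GABRB1 at 0.71 (edgeR adjusted p = 0.0618). These comparisons share the acute groups with those above and are not separate evidence of the acute values.

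At 1 µM dopamine GABRA2 alone of the 7 passed the main test against PBS, at both acute times. It was at 23.2, 16.7 and 22.0 TPM in PBS, at 13.2, 16.4 and 14.6 TPM in Ac1h and at 9.49, 12.6 and 14.2 TPM in Ac24h. Neither acute group overlapped PBS, and TPM was lower without overlap for 5.37% of all genes at 1 h and 6.52% at 24 h. GABRA2 fell by 0.59 ± 0.12 at 1 h (edgeR adjusted p = 0.0139), where 3.55% of 22537 genes were lower and 5.83% called. It fell by 0.79 ± 0.13 at 24 h (edgeR adjusted p = 0.00622), where 1.38% were lower and 2.13% called. In exon reads the 24 h value was -0.82 (edgeR adjusted p = 0.0212, with 1.91% of genes lower) and the 1 h value -0.43 (adjusted p = 0.176). Both total-read calls stood with any 1 library left out, and the 1 h call ended in a fit of PBS and Ac1h alone (-0.54, edgeR adjusted p = 0.235).

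Chronic 1 µM dosing left GABRA2 at 16.1, 16.5 and 17.9 TPM after 1 h and at 18.5, 17.1 and 20.5 TPM after 24 h. No member passed against PBS in total reads, with 3.58% of genes called at 1 h and 0.0% at 24 h, where 1031 genes had an unadjusted p under 0.05 in edgeR and DESeq2 called 14. GABRA2 was higher in Ch24h than in Ac24h by 0.61 (edgeR adjusted p = 0.0201), where 1.4% of genes were higher and 2.96% called. That call was lost with any 1 library of the compared groups left out (edgeR adjusted p between 0.0544 and 0.0695). Between Ch1h and Ac1h no member passed, beside 1.3% of genes and 2914 at an unadjusted p under 0.05.

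The other 6 members spread widely at 1 µM, where PBS library 2 had reads of 20984 genes, the fewest of that experiment. Over the 15 libraries GABRA3 ran from 39.1 to 66.3 TPM, GABRA5 from 5.48 to 13.0 and GABRB2 from 5.54 to 10.1. No dopamine group was clear of PBS for these 3 genes. GABRA4 was at 2.57, 4.53 and 2.39 TPM in PBS and at 2.70, 1.85 and 1.57 TPM in Ac1h, with -0.49 ± 0.35 (edgeR adjusted p = 0.421). In Ac24h GABRA4 was at 1.70, 1.66 and 2.01 TPM, all below PBS, with -0.72 ± 0.35 in total reads (edgeR adjusted p = 0.393) and -0.96 in exon reads (adjusted p = 0.189), where 6.52% of genes were lower without overlap. GABRB1 ran from 2.37 to 8.32 TPM in PBS and from 0.818 to 3.69 in Ac1h, with -1.23 in exon reads (edgeR adjusted p = 0.152) and 0.44 in total reads (adjusted p = 0.625). The intron reads of the second Ac1h library were high for several members, with 444 in GABRB1 and 398 in GABRA3, and that library had 31.2% intron reads over all genes. Without that library GABRB1 was at -0.04 (edgeR adjusted p = 0.976) and GABRA4 at -0.51 (adjusted p = 0.526).

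GABRR2 was near the limit of detection at 1 µM. Exon reads were 11, 0 and 7 in PBS, 0, 12 and 2 in Ac1h, 6, 15 and 7 in Ac24h, 4, 18 and 19 in Ch1h and 4, 20 and 1 in Ch24h. A library with 0 exon reads allows up to 0.201 TPM in PBS and up to 0.384 TPM in Ac1h (3 reads, counting error only). Intron reads were 16, 0 and 8 in PBS and 52, 83 and 60 in Ch1h, and were higher in Ch1h by 3.45 ± 0.83 (edgeR adjusted p = 0.0161), where 2.59% of genes were higher and 8.57% called in intron reads. Total reads gave 2.71 with adjusted p = 0.154 in edgeR and adjusted p = 0.0228 in DESeq2, and exon reads 1.34 with adjusted p = 0.664 in edgeR.

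**Figure D4:**
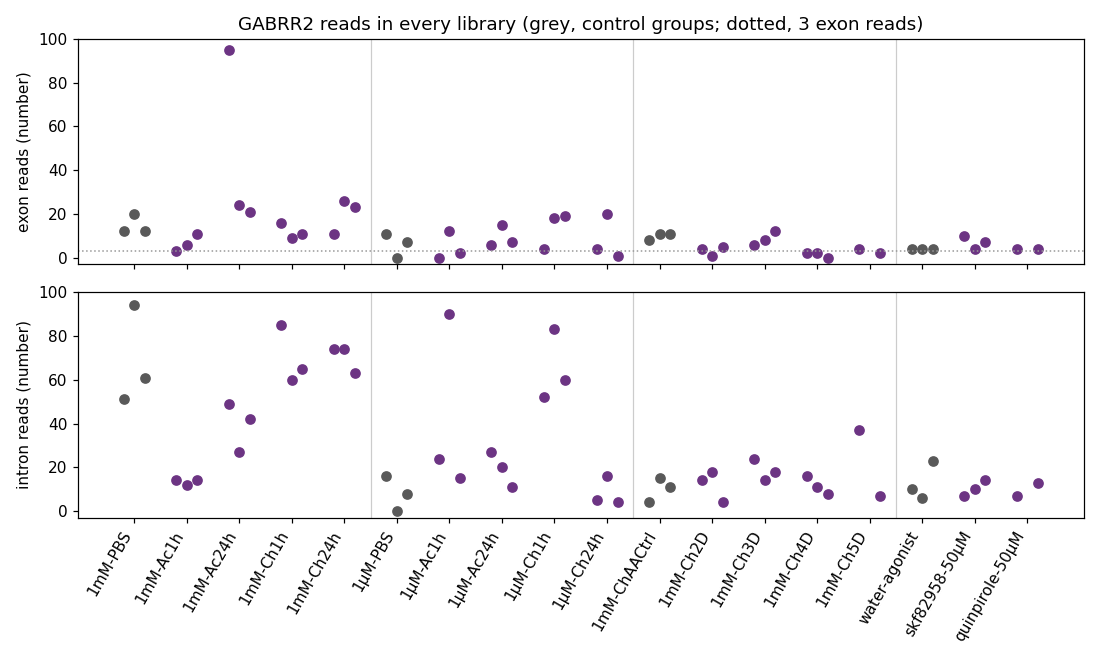
GABRR2 exon reads (upper panel) and intron reads (lower panel) in every library, by group. Grey marks control groups and the dotted line 3 exon reads. The quinpirole library with 96.7% intron reads is left out. Most libraries hold under 20 exon reads, 1 Ac24h library at 1 mM holds 95, and the Ac1h libraries at 1 mM hold 12 to 14 intron reads against 51 to 94 in PBS.

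The doses were compared by the interaction of dose with treatment. At acute 1 h, GABRR2 differed between 1 mM and 1 µM by -3.30 ± 0.99 (edgeR adjusted p = 0.0173), the only member of 7 to pass where 18.0% of 26135 genes were lower and 27.9% called. Its total reads moved down at 1 mM (-1.5) and stood at 1.95 at 1 µM (edgeR adjusted p = 0.22). The difference was in intron reads (-3.28, adjusted p = 0.00738, with 16.3% of genes lower) and did not pass in exon reads (-0.93, adjusted p = 0.82), and it ended without the second 1 µM Ac1h library, which held 90 of the intron reads of that group (-2.49, edgeR adjusted p = 0.0837). GABRA3 passed in intron reads as well (-1.09, edgeR adjusted p = 0.0283), with 0.16 in total reads (adjusted p = 0.439). GABRA4 was at -0.76 (adjusted p = 0.144) and GABRB1 at -1.26 (adjusted p = 0.0701), and GABRA2 at 0.19 ± 0.18 (adjusted p = 0.44) in edgeR.

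Other members passed this test with a single 1 µM library left out. GABRA4 (-1.28, adjusted p = 0.0133) and GABRB1 (-1.59, adjusted p = 0.0356) passed without PBS library 2, GABRB1 (-1.64, adjusted p = 0.00654) and GABRB2 (-0.80, adjusted p = 0.0312) without Ac1h library 3, and GABRB1 (-1.25, adjusted p = 0.0337) without Ch1h library 2 (edgeR). DESeq2 size factors in the edgeR fit moved the median of all genes from 0.0098 to -0.19 in this comparison. At chronic 1 h no member passed in total reads, beside 0.0957% of genes and 2804 at an unadjusted p under 0.05, and GABRR2 differed in intron reads (-3.26, edgeR adjusted p = 0.0338), where 0.294% of genes were lower.

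Over 2 to 5 daily doses of 1 mM dopamine no member passed against the AA vehicle in total reads, and the values of GABRA2, GABRB1 and GABRB2 were above 0 at 2, 4 and 5 doses. The comparison asks how transcripts change as doses accumulate, all cultures being collected on the same day. GABRA2 was at 13.4, 13.1 and 12.3 TPM in AA, at 15.2, 13.9 and 16.1 after 2 doses, at 15.1, 11.6 and 11 after 3, at 17.2, 16.7 and 17.5 after 4, and at 12.7 and 19.0 after 5. The 2-dose and 4-dose libraries all lay above AA, as for 4.44% and 10.1% of all genes, and the other groups overlapped AA. Total-read log2 fold changes were 0.31 (adjusted p = 0.0738), 0.01 (adjusted p = 0.945), 0.36 (adjusted p = 0.0546) and 0.31 (adjusted p = 0.113) in edgeR. Exon reads rose by 0.35 after 2 doses (edgeR adjusted p = 0.0491) and by 0.43 after 4 (adjusted p = 0.0176), where 1.89% and 2.58% of genes were higher and 3.88% and 4.38% called in exon reads.

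GABRB1 was at 2.14, 3.67 and 3.02 TPM in AA, at 3.69, 3.86 and 4.77 after 2 doses, at 3.61, 2.48 and 3.18 after 3, at 4.34, 6.47 and 5.31 after 4, and at 3.54 and 5.30 after 5. Its 2-dose and 4-dose libraries were above every AA library, as for 4.44% and 10.1% of all genes. Exon reads rose by 0.90 after 4 doses (edgeR adjusted p = 0.049) and intron reads rose by 0.75 after 2 doses (adjusted p = 0.032, with 0.655% of genes higher), while total-read values ran from 0.28 to 0.77 with adjusted p of at least 0.079. GABRB2 was at 5.63, 5.53 and 4.97 TPM in AA, at 6.65, 6.55 and 7.25 after 2 doses and at 7.30, 6.77 and 9.00 after 4, without overlap, with 0.47 (adjusted p = 0.124) and 0.53 (adjusted p = 0.101) in edgeR. After 5 doses GABRB2 was at 7.06 to 7.61 TPM, also above every AA library, as for 7.58% of all genes. The value there was 0.54 (edgeR adjusted p = 0.113), and the 3-dose libraries overlapped AA.

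GABRA5 moved apart from the others in level. It was at 22.1, 22.3 and 24.9 TPM in AA, at 17.3, 11.9 and 16.5 after 2 doses and at 29.6, 28.2 and 28.8 after 3. It was at 16.2, 24.6 and 13.3 TPM after 4 doses and at 21.4 and 15.0 after 5. The 2-dose and 5-dose libraries were all below AA, as for 18.9% and 12.5% of all genes. The 3-dose libraries were all above AA, as for 6.83% of all genes, and the 4-dose libraries overlapped it. The total-read values were -0.44 ± 0.21 (adjusted p = 0.255), 0.44 ± 0.20 (adjusted p = 0.221), -0.30 (adjusted p = 0.534) and -0.25 (adjusted p = 0.55) at 2, 3, 4 and 5 doses in edgeR. GABRA4 was at 1.24, 1.77 and 1.40 TPM in AA and at 1.85 and 3.07 after 5 doses, at 0.97 ± 0.28 (edgeR adjusted p = 0.0911). GABRA3 was at 57.0 to 62.2 TPM in AA, and at 64.4, 68.8 and 66.0 after 4 doses. These were all above AA, as for 10.1% of all genes, with 0.17 ± 0.08 for GABRA3 (edgeR adjusted p = 0.335). At 2, 3 and 5 doses it overlapped AA.

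GABRR2 had 8, 11 and 11 exon reads in AA, 4, 1 and 5 after 2 doses, 6, 8 and 12 after 3, 2, 2 and 0 after 4, and 4 and 2 after 5. The 2-, 4- and 5-dose libraries were all below AA, at low counts in every library. TPM was below AA without overlap for 18.9%, 10.8% and 12.5% of all genes at these doses. The 4-dose exon-read value was -2.44 ± 0.75 with adjusted p = 0.0758 in edgeR, and the total-read value -0.25 (adjusted p = 0.894).

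The shares of genes called in total reads were 3.35%, 4.95%, 2.13% and 1.02% at 2, 3, 4 and 5 doses, with 5, 1, 3 and 5 members at an unadjusted p under 0.05. DESeq2 called 2 members at each of 2, 4 and 5 doses, where it called 1340, 1053 and 1003 genes in all. Calls also appeared when 1 library was left out of the edgeR fit. Without the first 3-dose library, GABRA2, GABRB1 and GABRB2 passed at 2 doses (adjusted p of 0.0295, 0.0398 and 0.0339) and at 4 doses (0.0189, 0.0489 and 0.0255), and GABRB1 and GABRB2 at 5 doses (0.0485 and 0.0454). Without either 5-dose library GABRA2 and GABRB1 passed at 2 and 4 doses, and without the third-numbered 5-dose library GABRB1 (1.05, adjusted p = 0.00588), GABRB2 (0.64, adjusted p = 0.0386) and GABRR2 (1.57, adjusted p = 0.0337) passed at 5 doses, where a single library then stood for that group. No member had a slope over 2 to 5 doses that passed in edgeR, which called 0 genes with 1186 at an unadjusted p under 0.05, and DESeq2 called 2 genes.

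**Figure D5:**
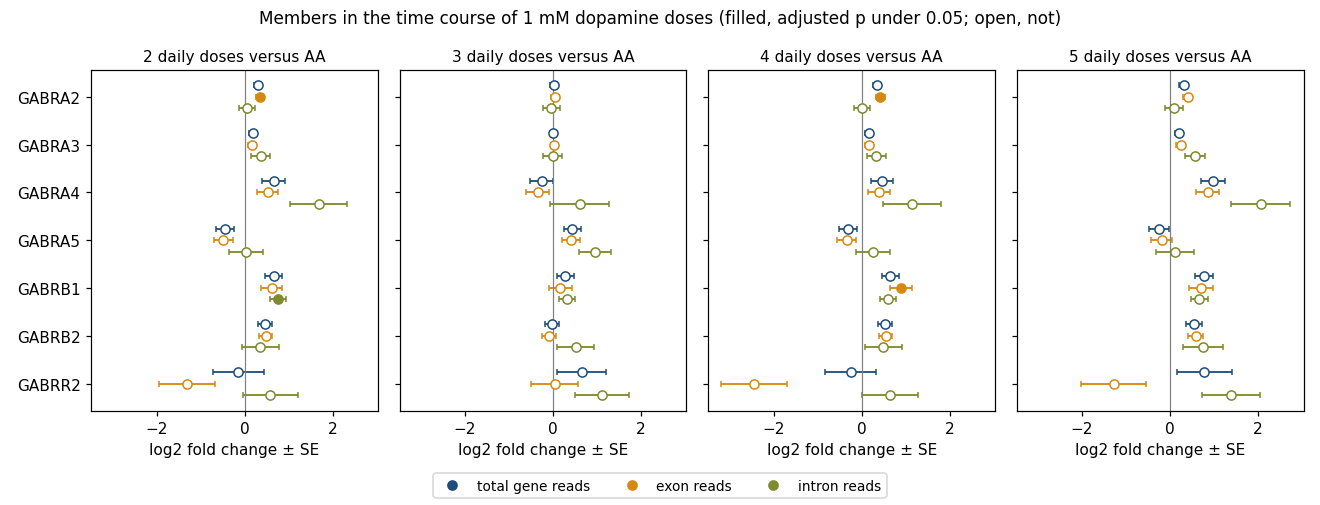
Log2 fold change ± SE of the 7 genes at 2, 3, 4 and 5 daily doses of 1 mM dopamine against the AA vehicle (1 panel each), for total, exon and intron reads by colour. Filled points have an adjusted p under 0.05. Filled points are exon reads of GABRA2 at 2 and 4 doses, exon reads of GABRB1 at 4 doses and intron reads of GABRB1 at 2 doses, and GABRR2 has the longest error bars.

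The receptor agonists gave no call among the members. SKF82958 and quinpirole act on different receptor classes and were set against water and against each other, 3 pairs in all, at 50 µM. GABRA2 was at 18.5, 18.2 and 18.3 TPM in water, at 20.0, 19.9 and 23.2 in SKF82958 and at 15.1 and 20.3 in the quinpirole libraries other than the first. The SKF82958 libraries were above water, as for 12.1% of all genes, yet the total-read value was 0.06 ± 0.16 (edgeR adjusted p = 1). GABRA3 was at 71.9, 69.8 and 63.0 TPM in water, at 70.7, 71.4 and 76.8 in SKF82958 and at 60.5 and 74.4 in those quinpirole libraries, all overlapping.

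Over the 3 pairs 0.0% of 20475 genes were called in total reads by edgeR, with 57 genes for SKF82958 and 3321 for quinpirole at an unadjusted p under 0.05 against water, and with 9 and 0 called by DESeq2. With the first quinpirole library in the fit, the quinpirole values against water were -0.03 for GABRA2, 0.23 for GABRA3, 0.49 for GABRA4, -0.65 for GABRA5, 1.89 for GABRB1, 0.39 for GABRB2 and 3.09 for GABRR2, with edgeR adjusted p of at least 0.302. With that library left out, no member passed either, and the quinpirole values against water ran from -0.21 (GABRA4 and GABRB2) to 0.01 (GABRB1). The left-out library held 0 exon reads of GABRA3 and GABRA5 and 635 and 15 intron reads of them. GABRR2 had 4, 4 and 4 exon reads in water and 10, 4 and 7 in SKF82958, too few for the exon-read test.

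The rest of the GABA system was counted from fixed lists for the acute 1 mM dose at 1 h, where 28.7% of all genes were lower and 18.5% higher in total reads. Of the other 12 subunit genes 7 were lower and 1 higher in total reads, and 1 was lower and 1 higher among the 8 that could be tested in exon reads, where 7.94% of genes were lower. Their median log2 fold change was -0.49, beside -0.59 for the members. Among 19 genes for receptor anchoring and trafficking 6 rose and 1 fell, a smaller share called than the 47.2% of all genes, with GABARAP (0.57), which links receptors to trafficking, ZDHHC3 (0.55), which palmitoylates receptor subunits, CLPTM1 (0.38) and PLCL1 (-0.72) the largest. GAD2 (0.41), which makes GABA, rose alone among 8 genes for GABA synthesis, packaging, uptake and breakdown.

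Of 5 GABA-B receptor genes 3 fell and 1 rose, beside 28.7% of genes lower and 18.5% higher, with KCTD16 at -1.11, KCTD8 at -0.90, GABBR2 at -0.52 and KCTD12 at 0.88. KCTD8, KCTD12 and KCTD16 encode auxiliary subunits and GABBR2 a core subunit. Among 8 chloride transporters and their kinases, which set the driving force of GABA-A currents, SLC12A7 (0.57) and WNK1 (0.33) rose, a smaller share than that of all genes called. Of 4 genes of the glycine receptor, the other inhibitory chloride channel, GLRA3 (-1.03), GLRA2 (-0.65) and GLRB (-0.43) fell. At 24 h 4 of these 4 were lower, while 6 of the 12 other subunit genes were lower and 1 higher, beside 25.5% of all genes lower and 43.8% called. No gene of these 6 lists passed between chronic 1 h and PBS.

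Marker genes of cell types were counted in the same comparison, and in every list but the pluripotent one a smaller share was called than the 47.2% of all genes. The 5 excitatory neuron markers summed to 1360 to 1420 TPM in PBS, 566 to 696 in Ac1h and 619 to 805 in Ac24h, and 2 of the 5, SLC17A7 and NEUROD6, were lower at 1 h. The 6 astrocyte markers summed to 253 to 287 TPM in PBS and 410 to 469 in Ac1h, with 1 higher and 1 lower. The 7 neuron markers summed to 3680 to 4220 TPM in PBS and 3350 to 3670 in Ac1h, with 1 higher and 1 lower, and the 13 striatal markers to 137 to 154 and 119 to 133, with 2 higher and 3 lower. No marker of these 4 lists was at 0 in either group. Each sum follows its most abundant genes most. The highest means over the control libraries were 776 TPM for NEUROD6 (excitatory), 109 for GJA1 (astrocyte), 1240 for STMN2 (neuron) and 56.1 for BCL11B (striatal). Of the other lists, 2 of 7 progenitor and 1 of 6 oligodendrocyte markers were higher, and 2 of 5 tested interneuron, 1 of 5 mesenchymal and 3 of 3 pluripotent markers were lower, the last summing to 1.16 TPM at most. The part of cell makeup in the members' values was not tested.

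Genes whose levels went with those of a member across libraries were taken for the 3 most abundant members, from 18316 genes over 53 libraries after subtracting each experiment's mean. For GABRA3 these were SMIM18 (Pearson's r 0.535), BMP3 (0.490) and AL356419.1 (0.485), so that no gene went closely with it. For GABRA5 they were CHGA (0.934), XKR7 (0.930) and CHST1 (0.921), and for GABRA2 DTNA (0.859), RGS7BP (0.791) and LMO7 (0.789). Without the first quinpirole library r was 0.720 for GABRA5 with CHGA, 0.868 for GABRA2 with DTNA and 0.598 for GABRA3 with SMIM18. The libraries share depth and intron share, and the values are a description.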

How the data were processed

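RNA-seq of 53 libraries was analysed, 1 deposited table per library with 60676 genes, and 1 labelled 5-dose sample was not analysed here. Per the study's methods, the authors trimmed reads and mapped them to GRCh38 with the RNA-seq tool of CLC Genomics Workbench (the submitters' processing notes name hg38). The deposited read counts are whole numbers of total, exon and intron reads per gene, and the deposited TPM is from exon reads, scaled by the authors to the same sum in every library. Which sequencing provider handled each library, and the strand setting, are not given in the sources used here. The labels put all libraries in groups.

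The main test was of total gene reads in edgeR 4.0.16 (R 4.3.3), a quasi-likelihood test with TMM scaling, after filterByExpr with a minimum count of 10 and a minimum total of 15, in 1 fit per experiment and 1 fit of both dose experiments for the dose difference. P-values were adjusted by Benjamini-Hochberg over all genes tested, and a gene passed at an adjusted p under 0.05. Exon reads and intron reads were fitted in the same way, each scaled to its own class. DESeq2 1.42.0, other scalings and filters, and each library left out in turn were alternatives. The scripts were tested on simulated data first. The 7 genes and the gene lists were chosen with earlier results of these data known. All 7 were tested in total reads in every comparison, but values of single members are not given for each comparison. Of each other list at most 4 genes that passed are named, those with the largest absolute log2 fold change. Other subunit genes are given as counts only. No columns of other samples were in the files. Libraries held 4121674 to 33715972 reads on genes, and intervals or limits from counts cover counting error only.

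Replicate numbers did not pair the samples: the mean correlation of same-numbered deviations was -0.088 in the agonist experiment, -0.049 in the time course, -0.0045 at 1 mM and 0.079 at 1 µM. Figures were drawn with matplotlib 3.10.9.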

Additional observations from a re-analysis of the deposited data

Results flagged for a closer look

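The acute 1 h response of GABRR2 differed between the doses by -3.30 on the log2 scale (total reads, edgeR adjusted p = 0.0173), a difference tested by the interaction of dose and treatment. Intron reads were 51, 94 and 61 in PBS and 14, 12 and 14 in Ac1h at 1 mM, and 16, 0 and 8 in PBS and 24, 90 and 15 in Ac1h at 1 µM. Exon reads gave -0.93 (edgeR adjusted p = 0.82). Without the second 1 µM Ac1h library, in which 31.2% of all reads were in introns, the value was -2.49 (edgeR adjusted p = 0.0837). Dose and experiment cannot be told apart here.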

How the results depend on the processing

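Counts of members that passed are given as the value under the alternative after that of the main test. Shares of all genes called are not given for fits of fewer libraries or groups. With exon reads they were 3 after 5 (1 mM Ac1h), 2 after 4 (Ac24h), 2 after 5 (Ch1h against Ac1h), 1 and 2 after 0 (2 and 4 doses), and 0 after 1 for 1 µM Ac1h, 1 µM Ch24h against Ac24h and the acute dose difference. With exon reads and without the first Ac24h library (chosen after seeing the data) they were 3 after 5 (Ac1h), 3 after 5 (Ch1h against Ac1h) and 1 after 0 (Ch1h). With intron reads they were 3 after 5 (Ch1h against Ac1h), 2 after 1 (acute dose difference), 1 after 0 (1 µM Ch1h, 2 doses and the chronic dose difference) and 0 after 1 (1 µM Ac1h, 1 µM Ac24h and 1 µM Ch24h against Ac24h). DESeq2 gave 2 after 0 (2, 4 and 5 doses), 1 after 0 (1 µM Ch1h and Ac24h against Ac1h) and 2 after 1 (acute dose difference). It called 1340, 1053, 1003, 1770, 2795 and 7998 genes in these comparisons, in that order. Fits of only the groups compared gave 1 after 4 (Ac24h), 0 after 3 (Ch24h against Ac24h), 1 after 0 (Ch1h and 3 doses), 3 after 0 (2 and 4 doses), and 0 after 1 (1 µM Ac1h and the dose difference). A minimum of 10 reads in every library gave 1 after 0 (2 doses, 4 doses and Ac24h against Ac1h) and 0 after 1 (1 µM Ac1h and the dose difference), no filter gave 1 after 0 (5 doses), and uniquely mapped reads gave 2 after 1 (dose difference). The study's rule gave 1 after 5 (Ac1h and Ch1h against Ac1h), 0 after 4 (Ac24h), 0 after 3 (Ch24h against Ac24h) and 0 after 1 (1 µM Ac1h, 1 µM Ac24h, 1 µM Ch24h against Ac24h and the dose difference).

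With 1 library left out the counts were 4 to 5 (Ac1h), 2 to 4 (Ac24h), 0 to 1 (Ch1h), 3 to 5 (Ch1h against Ac1h), 2 to 5 (Ch24h against Ac24h), 0 to 2 (Ac24h against Ac1h), 0 to 1 (1 µM Ch24h against Ac24h), 0 to 3 (2, 4 and 5 doses and the acute dose difference), 1 to 1 (1 µM Ac1h and Ac24h) and 0 to 0 elsewhere. A left-out 5-dose library leaves 1 sample there, assumed to vary like the others.

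The replicate block moved no count by over 1.5 times. It ended the GABRA3 call in Ch1h against Ac1h (-0.28, edgeR adjusted p = 0.0551), and the pairing is by number only. Direction reversed, in 1 of the fits at an adjusted p under 0.05, for GABRA3 with intron reads at 1 mM Ac1h (0.09 to -0.59), in Ch1h against Ac1h (-0.28 to 0.30) and in the acute dose difference (0.16 to -1.09), and for GABRB1 with exon reads in Ch24h against Ac24h (0.76 to -0.18). GABRR2 in Ch24h against Ac24h ran from -0.61 to 0.72 with 1 library left out, the highest without the first Ac24h library (edgeR adjusted p = 0.0302). Of 3977 values of single members under alternatives, over 161 pairs of a member and a comparison, 3822 stayed on their side of the threshold (248 of them with the other sign and no call), 86 lost the call, 64 gained one and 5 reversed. The cause was not tested. Depth limits GABRR2 most, with a median of 7 exon reads per library.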
